A study of Homo sapiens with 4 samples.

Results

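Imprinted genes are transcribed mainly from the copy inherited from a given parent, and the occupancy of the histone variant macroH2A1 at 10 of them in IMR90 cells is described here. The genes were IGF2, H19, MEST, PEG3, PEG10, SGCE, DLK1, MEG3, SNRPN and NDN, out of 36802 autosomal protein-coding and long noncoding genes that could be measured in the same way. They were listed by name and not by any measured value, although earlier results of these data were known when they were chosen. Each was read as a window made of its annotated gene span in the human build hg19 and 50 kb on either side, and all 10 had enough assayed bases to be measured. The series used ChIP-seq, in which chromatin is immunoprecipitated and its DNA sequenced, to map macroH2A1 in IMR90, a widely used strain of human fetal lung fibroblasts grown as an untreated culture in medium with serum. It held 2 ChIP samples, described as biological replicates, and 2 matched input samples of sheared chromatin without antibody. Inputs entered only as the denominator of the log2 ratios that the authors deposited, so positive values mean relatively more ChIP than input signal. ChIP-seq does not measure RNA, so the fibroblast label could not be checked against marker genes, and no gene's expression or allelic state is known from these files. Parental copies were not separated, and every value is for both copies together.

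Imprinted genes lie in clusters. In each cluster a differentially methylated imprinting control region, read through CTCF on the unmethylated copy or through zinc finger proteins of the ZFP57 type on the methylated copy, decides which parental copy is transcribed. MacroH2A1 is an H2A variant with a large carboxy-terminal macro domain, known from the inactive X chromosome, from broad domains of repressed chromatin and, in mouse, from imprinting control regions. Among the genes described here, H19 and MEG3 are long noncoding RNAs usually transcribed from the maternal copy, and the others are protein-coding genes usually transcribed from the paternal copy.

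Promoters are shown first for 4 members. RefSeq entries of 300 bases around a transcription start matched MEST, H19, MEG3, NDN and SNRPN, and did not match IGF2, PEG3, PEG10, SGCE or DLK1. Where a gene had several entries, the one with the most CpG was taken. NDN is shown because the 5 kb at its annotated start had the lowest level of the members. MEST, MEG3 and SNRPN were chosen after their values were seen, because a change of the macroH2A1 level lay close to these starts. For MEST the change lay within 5 kb of the printed start in replicate 1 alone. The letters are those of the RefSeq table of build GRCh38.p14, each found once in GRCh37, whose coordinates are given. All are written 5′ to 3′ on the gene's strand, and capitals mark CpG dinucleotides, the bases at which imprinting control regions are methylated. MEST lies at chr7:130131676-130131975 (+), MEG3 at chr14:101292195-101292494 (+), SNRPN at chr15:25199884-25200183 (+) and NDN at chr15:23932403-23932702 (−).
MEST: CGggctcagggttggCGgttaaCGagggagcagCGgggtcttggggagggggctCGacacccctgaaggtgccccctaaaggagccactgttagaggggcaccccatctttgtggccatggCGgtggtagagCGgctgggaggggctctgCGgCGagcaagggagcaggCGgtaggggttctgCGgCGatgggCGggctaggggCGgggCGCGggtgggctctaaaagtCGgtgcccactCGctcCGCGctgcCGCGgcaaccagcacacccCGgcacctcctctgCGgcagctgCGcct
MEG3: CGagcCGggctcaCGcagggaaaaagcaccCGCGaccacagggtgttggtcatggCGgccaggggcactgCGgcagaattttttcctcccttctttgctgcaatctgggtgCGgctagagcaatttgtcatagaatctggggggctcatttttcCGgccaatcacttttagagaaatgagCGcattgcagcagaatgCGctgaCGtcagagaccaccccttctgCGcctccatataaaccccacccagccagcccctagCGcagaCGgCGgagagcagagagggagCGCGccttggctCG
SNRPN: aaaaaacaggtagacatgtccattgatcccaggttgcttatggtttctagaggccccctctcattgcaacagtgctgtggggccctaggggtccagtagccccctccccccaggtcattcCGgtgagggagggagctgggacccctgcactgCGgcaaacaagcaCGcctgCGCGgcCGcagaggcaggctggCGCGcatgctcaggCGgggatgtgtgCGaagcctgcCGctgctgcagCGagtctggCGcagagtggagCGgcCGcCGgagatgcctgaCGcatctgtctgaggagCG
NDN: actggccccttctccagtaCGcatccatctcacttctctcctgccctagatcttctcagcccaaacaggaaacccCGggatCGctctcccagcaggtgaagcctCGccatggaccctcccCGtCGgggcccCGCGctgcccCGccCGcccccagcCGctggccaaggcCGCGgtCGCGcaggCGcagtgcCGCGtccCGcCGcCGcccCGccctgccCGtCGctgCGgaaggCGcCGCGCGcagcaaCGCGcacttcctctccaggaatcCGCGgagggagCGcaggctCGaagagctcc
These stretches hold 25 CpG in MEST, 19 in MEG3, 18 in SNRPN and 35 in NDN. Over 35116 RefSeq promoters of the same length the median was 14, but nothing can be read from this, since the entries richest in CpG were printed: other entries had 2, 7 and 11 CpG in SNRPN and 13 in MEST, and the H19 entry, not printed, had 6. TGCCGC or its reverse complement, the hexamer bound by ZFP57 when its CpG is methylated, occurred 3 times in MEST, 2 times in SNRPN and 1 time each in MEG3 and NDN, and 16.7% of all these promoters held it at least 1 time. Each match contains a CpG, so hexamers overlap the capitals and the choice of entries rich in CpG bears on this count as well. Nothing can be read from the 16.7% beside it: some entries not printed held a match, and others, among them that of H19, held none. The 4 printed stretches lay in segments with a negative log2 ratio in both replicates, whereas the H19 entry lay at 0.63 and 0.41, and 2 MEST entries nearer the annotated start lay in a segment of 0.72 in replicate 1.

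The annotated span of H19 holds CTCF sites of the imprinting control region that it shares with IGF2, and these are shown because the macroH2A1 level was positive over them. The search used the CTCF core written as CCGC, any 2 bases, GG, any base and GGCAG, on both strands, over the annotated H19 span and 10 kb upstream, 19.4 kb in all. It found 5 matches, all on the minus strand and all inside the annotated span, 1.54 to 4.59 kb downstream of the annotated start. The RefSeq start of H19 lies 3.29 kb farther in than the annotated start, so the place of the matches relative to the gene depends on the annotation. The matches at chr11:2021195-2021214, chr11:2023440-2023459, chr11:2023841-2023860 and chr11:2024246-2024265 have the same 20 bases, and the match at chr11:2022007-2022026 has other letters. Capitals mark the core.
Sites at 2021195, 2023440, 2023841 and 2024246: tggCCGCGCGGCGGCAGtgc
Site at 2022007: tggCCGCGTGGCGGCAGtgc
Of 6754 stretches of chromosome 11 of that length, 0.577% held any such match. The 0.0148% that held as many as 5 is the stretch with the H19 matches themselves, so it is not an independent rate. A match is a description of letters and not evidence of bound CTCF in these cells. All 5 lay in a segment with a log2 ratio of 0.63 in replicate 1 and 0.41 in replicate 2.

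The replicate files divided the genome into 46978 and 25598 segments, of median length 27.4 and 53.7 kb, each with a single value, so a level cannot change within a segment. A segment is called enriched here where its log2 ratio is above 0 and its −log10 p is at least 2. Over autosomal bases the median log2 ratio was −0.39 and −0.44 in replicates 1 and 2. Enriched segments covered 33.3% and 31.4% of these bases. Values are therefore given beside the background of all measured gene windows, whose median was −0.50, with quartiles of −0.96 and 0.07. Read numbers are not given in the files, so depth is unknown, and errors below are the spread of 2 replicates. With 1 group of ChIP samples, no test between conditions exists, and the results are descriptions.

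MacroH2A1 at the imprinted genes ranged between the upper tail of the genome's gene windows and levels below their median. DLK1 and IGF2 lay within long enriched domains, MEG3 and MEST were covered on their upstream side, and PEG3, SNRPN and NDN held no enriched segment at all. Over the 10 windows the median log2 ratio was −0.20 in replicate 1 and −0.35 in replicate 2 (mean −0.27 ± 0.11, SD, n = 2), against −0.52 and −0.48 over all autosomal gene windows. The log2 ratio was above 0 in both replicates for 3 members (DLK1, IGF2 and MEG3), where 23.9% of background windows were, and below 0 in both for 6, where 69.1% were. MEST was the remaining member, with opposite signs in the 2 replicates. A window was called enriched where at least 50% of its assayed bases lay in enriched segments of both replicates, and 4 of 10 members (IGF2, DLK1, MEST and MEG3) met this, against 24.4% of all windows. Among protein-coding genes alone the call was made for 3 of the 8 members in this class, with a background of 19%, and MEG3 was called where the background of long noncoding genes was 30%. With so few members these shares are counts and not estimates, and some members share chromatin: the DLK1 and MEG3 windows overlap by 58.8 kb and the PEG10 and SGCE windows by 100 kb. MEST at 55.0% and MEG3 at 51.6% were the members nearest above the limit of 50%, and H19 at 35.7% and PEG10 at 31.3% the nearest below it, at a wider distance. No base enriched in both replicates was found in 3 members, against 33.3% of background windows.

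**Figure D1:**
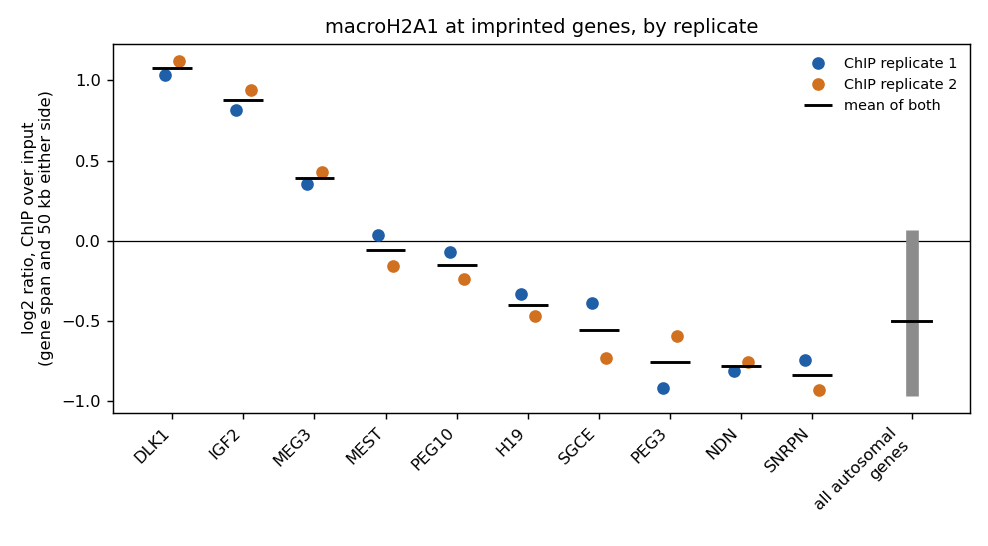
MacroH2A1 level of each imprinted gene, as the mean log2 ratio of ChIP over input across the gene span and 50 kb either side. Points are the 2 ChIP replicates, black lines their mean, and the grey bar at the right spans the quartiles of all 36802 autosomal gene windows with its median at −0.50. DLK1, IGF2 and MEG3 lie above 0 in both replicates.

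Ordered by the mean of both replicates, DLK1 was highest, followed by IGF2, MEG3, MEST, PEG10, H19, SGCE, PEG3, NDN and SNRPN. The replicate values of DLK1 and IGF2, of IGF2 and MEG3, of MEG3 and MEST, and of PEG10 and H19 did not overlap, whereas the ranges of MEST and PEG10, of H19 and SGCE, and of each neighbouring pair from SGCE down to SNRPN did. Among the 4 lowest genes, SGCE did not overlap NDN or SNRPN, and the order of PEG3, NDN and SNRPN is not resolved by the replicates. DLK1 was above 97.9% of all background windows, IGF2 above 95.3% and MEG3 above 85.2%. At the other end, PEG3 was above 34.2%, NDN above 32.7% and SNRPN above 30.0%, so the lowest members stood in the lower middle of the genome and not at its floor. The SD between replicates was between 0.04 (NDN) and 0.24 (SGCE), with a median of 0.11.

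**Figure D2:**
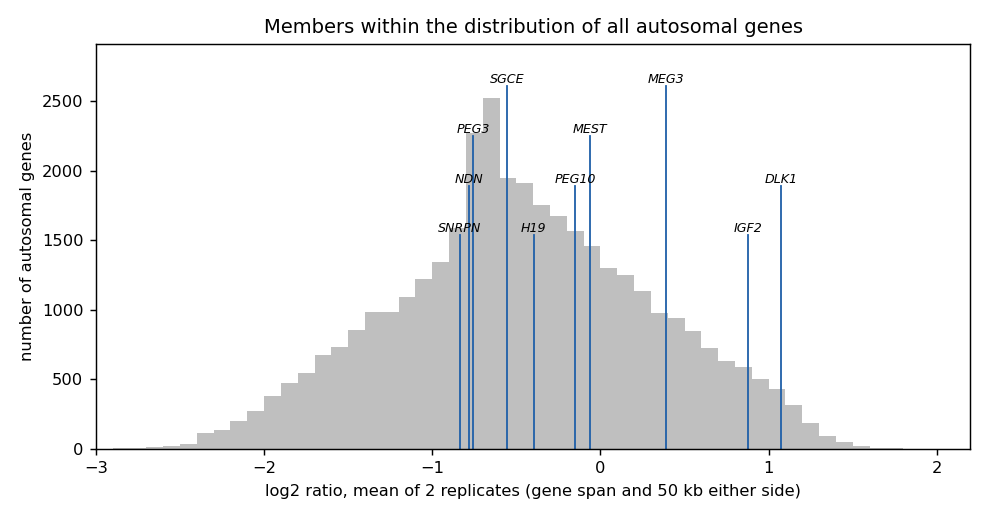
Position of the 10 imprinted genes (blue lines) in the distribution of the mean log2 ratio of all 36802 measured autosomal gene windows (grey, bins of the x axis; the y axis counts genes). DLK1 at 1.08 and IGF2 at 0.88 lie in the upper tail, and SNRPN at −0.84 lies below the median of −0.50.

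On chromosome 14q, DLK1 and MEG3 are the paternally and maternally expressed partners of an imprinted cluster. DLK1, a transmembrane protein with EGF-like repeats that restrains adipocyte differentiation, is annotated at chr14:101192042-101204561 (+), and its window had log2 ratios of 1.03 and 1.12 in replicates 1 and 2, with 97.0% of bases enriched in both. Over the gene itself the values were 0.94 and 1.10, against 1.04 and 1.12 in the flanks, so gene and surroundings were alike. MEG3, a growth-suppressing long noncoding RNA at chr14:101245747-101327368 (+), had window values of 0.35 and 0.43, with 51.6% enriched in both. Its intermediate level was the mean of a positive upstream part and a negative downstream part. The 41.2 kb between the annotated genes had 1.29 and 1.10 and was enriched along 100% of its length. A domain of 128 kb enriched in both replicates (chr14:101161013-101288666, 0.96 and 1.10) covered DLK1, this interval and the 5′ part of annotated MEG3. Upstream of it came an enriched piece of 4.76 kb and then another domain of 116 kb, which held BEGAIN, with 0.91 and 1.17. The short break nearer DLK1 came from replicate 1 alone, and the farther break from unassayed bases in replicate 2.

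The enriched domain ended inside annotated MEG3. In replicate 1 the level was 0.72 before and −0.43 after an edge 46.0 kb downstream of the annotated start, and in replicate 2 it was 1.10 before and −0.29 after an edge at 42.9 kb. GENCODE begins MEG3 with distal transcripts, whereas the RefSeq start printed above lies 46.7 kb farther in, so the edge fell 0.652 and 3.78 kb upstream of the RefSeq start. The level assigned to the MEG3 start thus depends on the annotation: 5 kb centred on the GENCODE start had 0.72 and 1.10, and 5 kb centred on the RefSeq start had −0.01 and −0.29. Of the 11 microRNA genes in the MEG3 window, 9 were below 0 in both replicates and lay beyond the edge. Among them MIR493, MIR127 and MIR136 had −0.65 and −0.29. In replicate 2 a single segment covered all 9, so they repeat a segment value and are not separate observations. RTL1, a retrotransposon-derived gene, had −0.35 and −0.29. MIR2392, before the edge, had 0.72 and 1.10. From DLK1 to DIO3, a deiodinase gene at the far end of the cluster, 838 kb had 0.32 and 0.47, with 48.7% enriched in both replicates.

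On chromosome 11p, IGF2 encodes a fetal growth factor and H19 is its maternally expressed noncoding neighbour. IGF2 (chr11:2150342-2179621, −) had window values of 0.81 and 0.94, and 100% of its window was enriched in both replicates. Over the gene span the log2 ratio was 0.91 and 1.04, and over the flanks 0.78 and 0.91. The domain around it extended over 198 kb (chr11:2092286-2290467, 0.64 and 0.77). It also held INS, encoding insulin, TH, encoding tyrosine hydroxylase, and the 3′ part of ASCL2, a transcription factor gene of the trophoblast. Its end within ASCL2 is a stretch of more than 1 kb without bases assayed in both replicates, and not a fall in level. The enriched segments there ran on to position 2360675 in replicate 1 and 2322834 in replicate 2. MIR483, within an IGF2 intron, shared the IGF2 value of 0.91 and 1.04. In replicate 1 a single segment of 126 kb covered the gene, and in replicate 2 a segment of 117 kb did.

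H19 (chr11:2016396-2025782, −) differed from its surroundings. Its gene span had 0.63 in replicate 1 and 0.41 in replicate 2, against −0.42 and −0.55 in the flanks, a difference of 1.00 ± 0.06 (SD, n = 2). As annotated, this span includes the CTCF matches shown above. The flanks were low mainly downstream of the gene, where segments of 24.6 kb and 28.8 kb over the mitochondrial ribosomal protein gene MRPL23 had −2.42 and −2.37. The gene body of MRPL23 averaged −1.48 and −1.62. The bases enriched in both replicates formed a stretch of 24.3 kb over H19 (chr11:2002534-2026880), with smaller pieces of 7.83 and 6.48 kb farther upstream. The breaks between them came from replicate 1 alone. In replicate 2 a single enriched segment of 67.2 kb covered H19 and these pieces without a break. The replicates disagreed most here: the sign was the same over 62.0% of H19 window bases, the lowest share of the members, with 47.4% enriched in replicate 1, 61.9% in replicate 2 and 35.7% in both. Replicate 1 divided the window into 8 segments and replicate 2 into 4. The window mean of H19, −0.33 and −0.47, therefore had the opposite sign to the gene. Between IGF2 and H19, 125 kb had 0.60 and 0.48, with 59.0% enriched in both replicates.

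On chromosome 7q32, the MEST gene was depleted of macroH2A1 and the sequence before it enriched. MEST, a member of the alpha/beta hydrolase family transcribed in mesodermal tissue, lies at chr7:130126012-130146306 (+). The gene span had −0.77 and −1.26, against 0.32 and 0.23 in the flanks, a difference of −1.29 ± 0.28 (SD, n = 2), the most negative of the members. An enriched domain of 43.1 kb (chr7:130082845-130125935, 0.72 and 0.63) ended 0.077 kb before the annotated start. In replicate 2 its edge lay there, with 0.63 before and −1.26 after it, and in replicate 1 the edge lay 4.83 kb downstream of the start, with 0.72 before and −1.24 after it. Replicate values at the annotated start were therefore of opposite sign, 0.72 and −0.34 over 5 kb. At the RefSeq start printed above, 5.91 kb farther in, they were −0.68 and −1.26. MIR335, within a MEST intron, had −1.24 and −1.26. MESTIT1, a noncoding RNA that runs antisense to the 5′ end, lay between the edges and had 0.71 in replicate 1 and −1.24 in replicate 2. The window mean of MEST was 0.04 and −0.16, and its enriched call at 55.0% came from the upstream domain: 0% of the gene span was enriched in both replicates. Only 65.1% of this window was assayed, since hg19 holds 41.8 kb of unknown bases downstream of the gene, and this weights the mean toward the upstream side.

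On chromosome 7q21, PEG10 and SGCE are divergent neighbours whose annotated spans overlap by 0.248 kb at their shared promoter, so both have the same start values of −0.55 and −0.85. PEG10, derived from a retrotransposon and needed for the mouse placenta, lies at chr7:94285637-94299007 (+) and had window values of −0.07 and −0.23. Its gene span had −0.40 and −0.85, against −0.02 and −0.15 in the flanks. SGCE, which encodes epsilon-sarcoglycan and underlies myoclonus-dystonia, lies at chr7:94153516-94285884 (−) and had window values of −0.38 and −0.73. Its gene span had −0.81 and −1.14, against 0.19 and −0.18 in the flanks, and the replicates differed little in this difference (−0.98 ± 0.03, SD, n = 2). The part of both windows enriched in both replicates was the same domain of 35.1 kb (chr7:94299030-94334139, 0.83 and 0.72), which began at the 3′ end of PEG10. In replicate 1 its edge lay 11.4 kb and in replicate 2 13.4 kb downstream of the PEG10 start, and the annotated gene is 13.4 kb long. No annotated protein-coding or long noncoding gene lay within that domain.

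**Figure D3:**
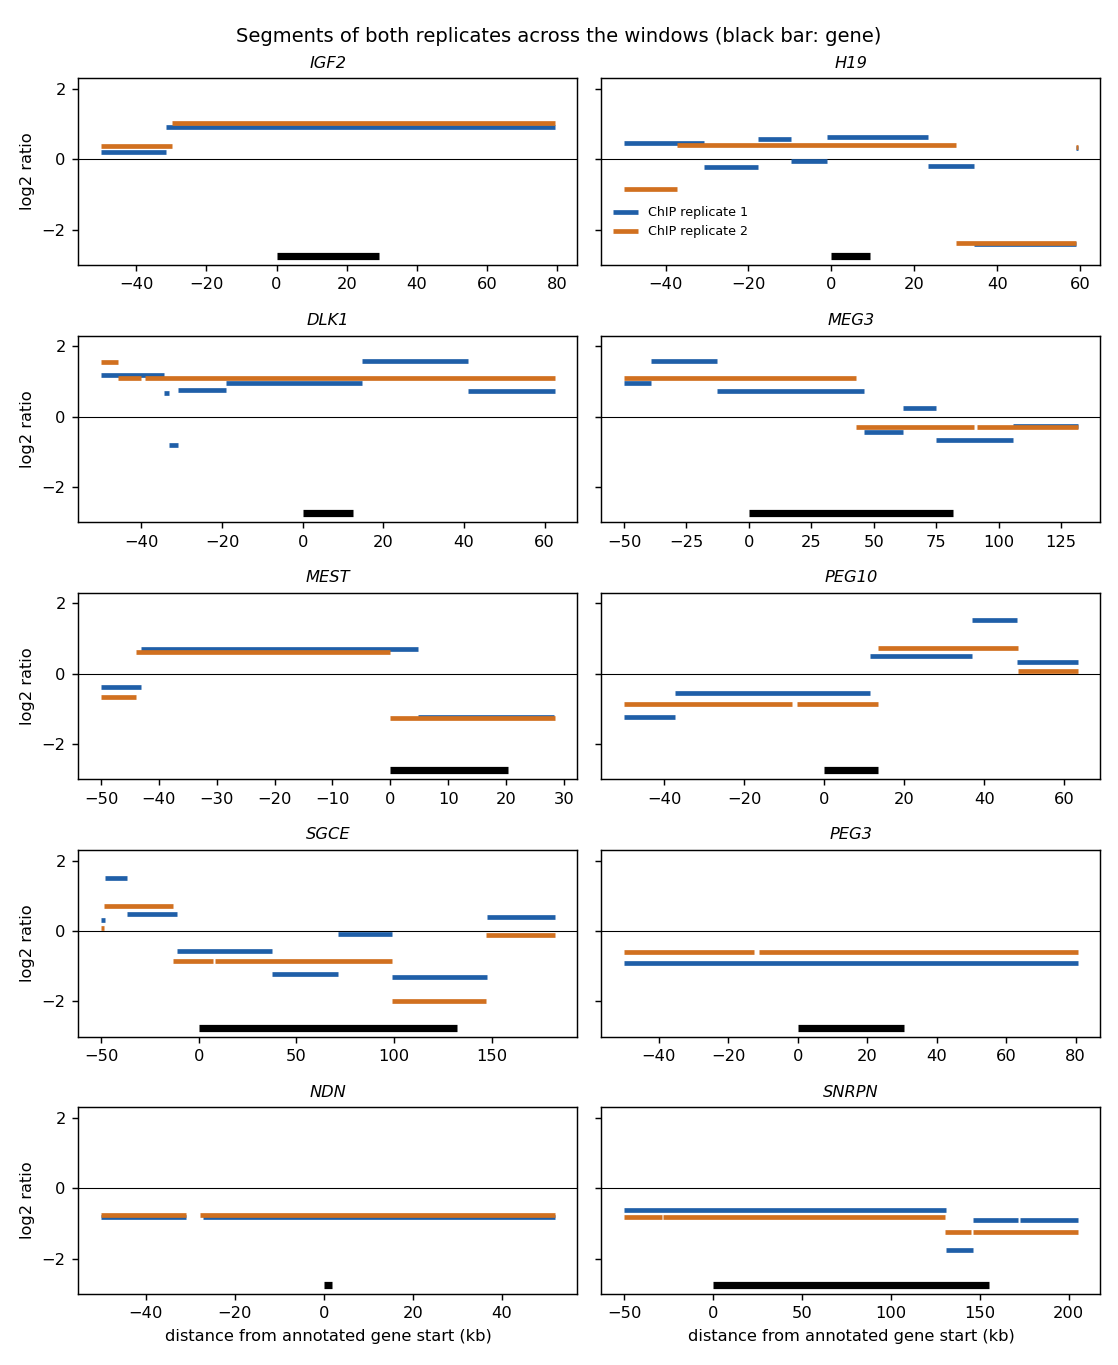
Segments of both replicates across each window, by distance in kb from the annotated gene start in the direction of transcription (x axis) and log2 ratio of ChIP over input (y axis), with the gene as a black bar. MEST and MEG3 show a positive level upstream and a negative level downstream of an edge, PEG10 the opposite, and PEG3 and NDN 1 level throughout.

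On chromosome 19q, PEG3 was low over its whole surroundings. PEG3, a zinc finger protein known for its role in growth and maternal behaviour in mouse, lies at chr19:57321445-57352096 (−), and gene, start and flanks all had −0.92 in replicate 1 and −0.59 in replicate 2. The window lay inside a segment of 302 kb in replicate 1 and a segment of 529 kb in replicate 2, which leaves any difference within it unseen. From ZIM2 to ZIM3, imprinted zinc finger neighbours, 371 kb had −0.80 and −0.59, and no base had a positive value in either replicate. Of 7176 autosomal stretches of that length, 19.6% likewise held no segment above 0.

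The 15q imprinted cluster, whose loss on the paternal copy causes Prader-Willi syndrome, was low over an even longer distance. NDN (chr15:23930547-23932452, −), which encodes necdin, a MAGE-family protein of postmitotic neurons, had −0.81 and −0.75 over window, gene and start alike, within segments of 921 kb in both replicates. SNRPN (chr15:25068784-25223870, +), which encodes the spliceosomal protein SmN and carries the imprinting centre of the cluster near its main start, had window values of −0.74 and −0.93. Within SNRPN the level changed at an edge 0.381 kb (replicate 1) and 0.852 kb (replicate 2) upstream of the RefSeq start at position 25200134, which is printed above and lies 131 kb inside the long GENCODE span. Before this edge the log2 ratio was −0.60 and −0.80, and after it −1.77 and −1.24. Both replicates thus placed a lower level downstream of that start, although the values on either side were negative. SNURF, which begins at the same base, had −1.47 and −1.24, and SNHG14, the long noncoding RNA that hosts small nucleolar RNAs, −1.33 and −1.30. Between NDN and SNRPN, 1136 kb had −0.68 and −0.65, with 0% enriched. From MKRN3 to UBE3A, 1873 kb had −0.86 and −0.85, and no base had a positive value in either replicate, as was the case for 3.75% of 1415 autosomal stretches of that length.

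Gene spans set against their own flanks divided the members into groups. H19 was above its flanks by more than 0.5 in both replicates, the only member of the 10, and 13% of background genes were. MEST and SGCE were below theirs by more than 0.5 in both, where 25.2% of background genes were. PEG10 was lower by 0.38 in replicate 1 and by 0.70 in replicate 2, so that its replicates fell on either side of this limit. IGF2, DLK1, MEG3, SNRPN, PEG3 and NDN differed from their flanks by at most 0.16 in either replicate. For PEG3 and NDN the difference was 0, because 1 segment spans everything.

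**Figure D4:**
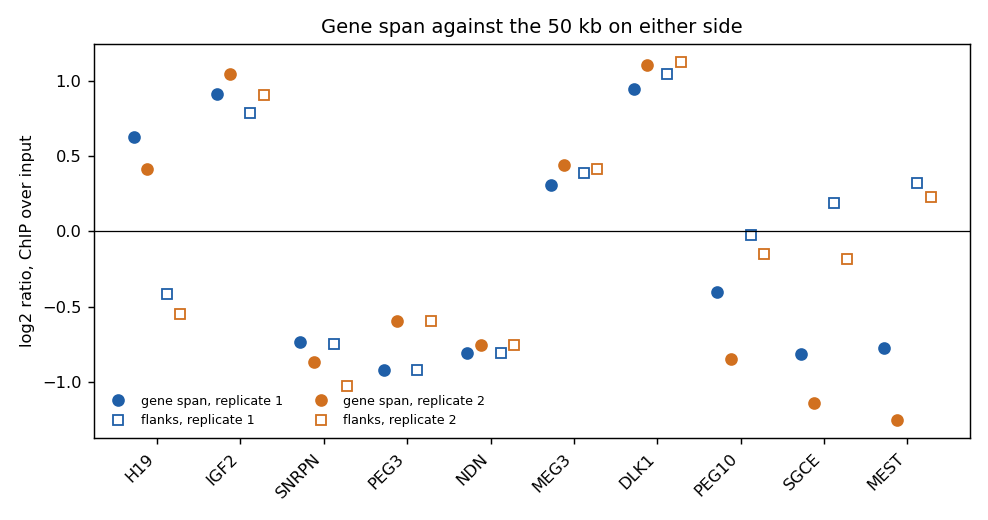
Log2 ratio of ChIP over input in the gene span (filled circles) and in the 50 kb on either side (open squares), by replicate, ordered by the mean difference. H19 at the left has a positive gene span and negative flanks, and SGCE and MEST at the right have gene spans below their flanks.

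Taking every annotated transcript start, 3 of 10 members had a start with a step to a lower level in the direction of transcription within 5 kb in both replicates: MEST at 6 of 17 starts, MEG3 at 13 of 34 and SNRPN at 5 of 10. Among all autosomal genes 19.2% had such a start, and 17.9% of 187713 transcript starts did. Starts of the same gene lie close together and are not independent of each other, and a gene with more annotated starts has more chances to be called. The rule was not among the planned readings, and the called genes are those whose promoters were printed for edges already seen. The count is therefore a description and not a result about the members. Over 5-kb windows at the annotated gene starts, 4 of 10 members were enriched (IGF2, H19, DLK1 and MEG3), against 24.3% of background starts, so the call passed from MEST to H19 when the start was read in place of the window.

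Base composition differed between the windows, and its part in the macroH2A1 levels was not tested. The windows of IGF2, H19, DLK1 and MEG3 had a GC content of 58.5%, 59.5%, 53.2% and 51.3%. The windows of MEST, PEG3, PEG10, SGCE, SNRPN and NDN had 41.7%, 42.9%, 36.9%, 36.6%, 40.4% and 41.1%. The members with a positive log2 ratio in both replicates had over 50% GC. H19 had over 50% GC as well, with a negative window value and a positive gene span (0.63 and 0.41). PEG10 had less GC than PEG3 and NDN, and its level was higher. The ZFP57 hexamer occurred 4.66 times per 10 kb in the H19 window, 3.79 in IGF2, 2.22 in DLK1 and 2.15 in MEG3, against 0.811 over chromosome 11 and 0.783 over chromosome 14. In MEST it occurred 2.29 times per 10 kb, against 0.782 over chromosome 7. PEG10 and SGCE had 0.529 and 0.559 on the same chromosome, SNRPN 0.666 and NDN 1.28 against 0.858 on chromosome 15, and PEG3 1.45 against 1.54 on chromosome 19. The hexamer is itself rich in G and C, and these rates were not adjusted for GC content, which was 41.6% over chromosome 11 and 40.9% over chromosome 14.

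Beyond the members, 62 further imprinted genes were measured by the same rule, and 10 of them (16.1%) were enriched, with a median log2 ratio of −0.48, against 24.4% and −0.50 in the background. Those within 1.5 Mb of a member numbered 33, of which 8 were enriched (24.2%) and 14 held no base enriched in both replicates. Their windows partly overlap those of the members and of each other, so the genes of a cluster are not independent. The enriched ones lay on 11p and 7q32.

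On 11p, the side of the cluster near IGF2 was enriched and the side near PHLDA2 was not. INS and IGF2-AS had 100% of their windows enriched, ASCL2 81.2%, KCNQ1, a potassium channel gene, 72.1% and its antisense RNA KCNQ1OT1 55.3%. CDKN1C, a cell cycle inhibitor at the far side of that cluster, had −0.05 and −0.01, and PHLDA2, a placental growth regulator, −1.40 and −1.25. SLC22A18, a transporter gene, had −0.85 and −0.68, and OSBPL5, a lipid-binding protein gene, −0.98 and −0.60. From H19 to PHLDA2, 934 kb had 0.32 and 0.41, with 66.3% enriched in both. On 7q32, CPA4, a carboxypeptidase gene, was enriched over 77.4% of its window and the transcription factor gene KLF14 over 75.5%, with COPG2, a coat protein gene beside MEST, at −0.51 and −0.65. MESTIT1 shares nearly all of the MEST window and was enriched over 55.0%. CPA4 and KLF14 lay outside the depleted segment that covers MEST. MESTIT1 lay almost wholly inside that segment in replicate 2 and almost wholly outside it in replicate 1. On 7q21 none was enriched: TFPI2, a protease inhibitor gene, had 0.16 and 0.14, PPP1R9A −0.19 and −0.36, CALCR −0.23 and −0.32, and CASD1 −0.49 and −0.91. On 14q, MEG9 had 0.07 and 0.46, DIO3 0.16 and 0.38, MEG8 −0.11 and 0.07, and RTL1 −0.29 and −0.27, and none was enriched over 50% of its window. On 19q, ZIM2, MIMT1, USP29 and ZIM3 held no base enriched in both replicates. On 15q the same held for MKRN3, MAGEL2, PWRN1, NPAP1, SNURF, SNHG14 and UBE3A, the ubiquitin ligase gene of Angelman syndrome, which was lowest with −1.59 and −1.79, and ATP10A at the far end had −0.45 and −0.45.

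**Figure D5:**
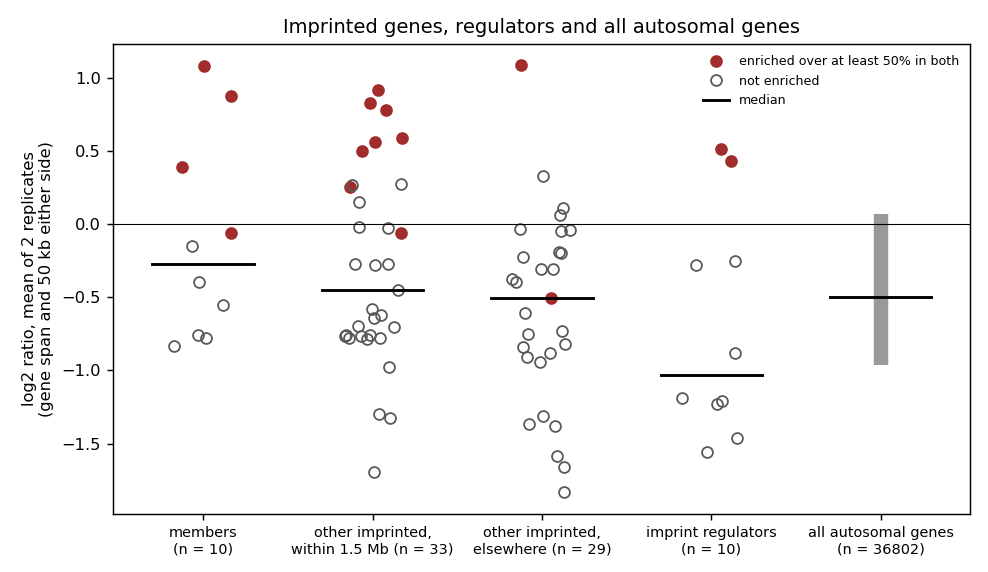
Mean log2 ratio over both replicates for the members, the other imprinted genes within 1.5 Mb of a member and elsewhere, and regulators of imprints. Filled points were enriched over at least 50% of their window in both replicates (4 of 10, 8 of 33, 2 of 29 and 2 of 10), lines are medians, and the grey bar spans the quartiles of all autosomal genes.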

How the data were processed

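The deposited values were log2 ratios of ChIP over input and −log10 p-values, which the authors gave per segment in a file for each of the 2 ChIP replicates. The submitters' processing notes name CASAVA 1.7 and hg19. For the aligner, segmentation program and scaling, the choice is not given in the sources used here. The base of the logarithm was inferred: 2 raised to the value averaged 0.988 and 0.976 over autosomal bases, and e raised to it 1.11 and 1.09. Segments are long and a peak or dip within one is unseen.

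Blocks of segments were intersected with GENCODE release 44 spans on GRCh37 (the same build) in Python 3.11.15 with numpy 2.4.6 and pandas 2.3.3. A window value is the mean over assayed bases, and a window needed 50% of its bases assayed, which 36802 of 37458 autosomal genes had. The 2 replicates were not pooled. Values are means with SD over n = 2, without p-values, since only 1 group has files. Calls were tested on simulated data.

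The members and lists were chosen with earlier results of these data known. All members are named. Other imprinted genes are named where they lie within 1.5 Mb of a member, and elsewhere by the 4 highest and the 4 lowest means. Regulators are all named. GPR1 was named outside this rule, after its value was seen. Alternatives were other windows, thresholds, centring, gaps, the base-weighted median, each replicate alone and RefSeq starts.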

Additional observations from a re-analysis of the deposited data

How the results depend on the processing

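No paired analysis was possible because the result comes from no test, and only the ChIP group has files. The median log2 ratio of the members was −0.69 over gene spans alone, −0.45 with 10 kb on either side, −0.44 with whole segments including gaps, and 0.14 after each replicate was centred on its autosomal median, a shift of 0.39 and 0.44 by construction. With either replicate alone it was −0.35 to −0.20. The median was within 1 SD with 100 kb, with the 5-kb start and with the base-weighted median. The count of enriched members was 2 (IGF2 and DLK1) at a limit of 75%, against a background of 12.5%, and 6 at 25%, against 45.7%. It was 5 in replicate 2 alone (background 30.8%), 4 in replicate 1 alone (29.2%), 4 at a log2 ratio above 0.5 (14.5%) and 4 at a −log10 p of at least 5 (20.2%). It was 3 or 4 under the other settings, with backgrounds of 19% to 26.1%. MEST, called at 50%, was not called over gene spans, with 10 or 100 kb on either side, at the start or with gaps included, and H19 was called over gene spans, with 10 or 100 kb and at the start. MEG3 fell to 49.6% with 100 kb on either side. For the other imprinted genes the count of 62 was 27 at 25% (background 45.7%), 6 at 75% (12.5%), 17 in replicate 2 alone (30.8%) and 13 in replicate 1 alone (29.2%).

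H19 had a negative window value, but 0.52 over the gene span, 0.42 with 10 kb, 0.063 with 100 kb, 0.42 at the 5-kb start, 0.18 by the base-weighted median and 0.019 when centred. PEG10 was 0.27 when centred. The MEG3 start was −0.15 at the RefSeq start, an alternative chosen after seeing the data. MEST, whose replicates had opposite signs, went to the positive side at the 5-kb start (0.19), when centred (0.36), by the base-weighted median (0.67) and in replicate 1 alone (0.04), and the MEG3 gene span less its flanks did so in replicate 2 alone (0.03). Of 120 planned values of single members under alternatives, 12 changed sign, 7 of them (H19 and PEG10) where both replicates had shared a sign. The shift under centring is by construction, and for the other changes the cause was not tested. Depth is unknown, and 2 replicates limit the precision of every SD.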

Other observations

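Regulators of imprints, all protein-coding, had counts near those of all genes. Of 10 genes, 8 were below 0 in both replicates, against 69.1% of all windows, and 2 were enriched, against 24.4% of all windows and 19% of protein-coding ones. Their median log2 ratio was −1.03, and that of all protein-coding windows −0.62. The genes that maintain methylation imprints in most cells were low: UHRF1 had −1.33 and −1.08, DNMT1, the maintenance methyltransferase, −1.36 and −1.01, TRIM28, the corepressor of zinc finger proteins, −1.27 and −1.19, and ZNF445, a zinc finger protein that binds imprinting control regions, −1.59 and −1.53. CTCF had −1.42 and −1.50, and the de novo methyltransferase gene DNMT3A −1.01 and −0.75. ZFP57 and DPPA3, genes of early embryos and germ cells, had −0.27 and −0.24, and −0.19 and −0.36, with no base enriched in both replicates. The enriched genes were DNMT3L, a germline cofactor of DNA methyltransferases, with 0.41 and 0.62 and 88.3% of its window covered, and CTCFL, the testis paralogue of CTCF, with 0.27 and 0.59 and 54.2% covered. RNA of these genes was not measured here.

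Imprinted genes far from the members were enriched in 2 of 29 cases (6.90%), against 24.4% of all windows. Several of these genes are neighbours with overlapping windows, among them HYMAI with PLAGL1 and ZNF597 with NAA60, so they are not independent of each other. FAM50B, an imprinted retrogene, had 0.92 and 1.25 with 100% of its window covered, above 98.0% of background windows. GPR1, annotated as CMKLR2, was called at 67.2% although its window mean was −0.56 and −0.45. Next to FAM50B in level came the paternally expressed HYMAI at 0.37 and 0.28, PLAGL1, a zinc finger gene, at 0.16 and 0.06, and DIRAS3, a growth-inhibiting GTPase gene, at 0.14 and −0.01. The lowest were ZNF597 at −1.80 and −1.87, NAA60 at −1.69 and −1.63, AIRN at −1.53 and −1.64, and PEG13 at −1.56 and −1.20.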
